A study of Mus musculus with 2 samples.

Results

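The genes described were 9 of the 32286 features in both count matrices, chosen by symbol: Ibsp, Spp1, Dmp1, Phex, Bglap, Bglap2, Mgp, Enpp1 and Ank. They encode proteins that bind, start or restrain mineral in bone and cartilage. Both matrices came from Procr-CreER;tdTomato mice, in which Procr drives a tamoxifen-inducible Cre and tdTomato marks cells in which Cre acted, with their progeny. The trace group was collected 4 weeks after tamoxifen and the pulse group 2 days after it. Both groups had the same genotype and received tamoxifen at 4 weeks of age, and no group without tamoxifen was analysed. Knee joint cartilage of 3 mice was pooled per group, sorted for tdTomato and against CD45, Ter119, CD31 and DAPI, and made into 1 droplet library, labelled as superficial cells, although the protocol text also speaks of periosteum. With 1 library per group no difference has a replicate check, and every interval covers counting error of unique molecular identifiers (UMIs) only.

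Cells with 500 or more genes and at most 10% mitochondrial UMIs were kept, which were 9247 of 10423 trace barcodes and 6533 of 6863 pulse barcodes, with a median of 3645 and 2837 UMIs. The libraries shared 16 barcodes. Xist, which silences an X chromosome in females, had 14149 UMIs in trace and 3 in pulse, and the Y-linked Ddx3y had 13 and 4246. Chase time, age and sex therefore cannot be told apart between the libraries. Ribosomal RNA-associated transcripts took 8.89% of trace and 0.961% of pulse UMIs. The Tdtomato transcript stood at 78.8 CPM (UMI counts scaled to a common library total) in trace and 36.4 CPM in pulse.

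A cell was placed in a class when its mean score over that class's marker genes led the next class, and the lists held none of the 9 genes. In trace and pulse, 2857 and 1540 cells were surface chondrocytes, marked by lubricin (Prg4), and 238 and 1032 were deeper chondrocytes, marked by matrilins and collagen IX. Another 238 and 881 chondrocytes lay between these zones. The osteoblast gate held 237 and 81 cells, with Col1a1 at 26862 and 8740 CPM. The osteocyte marker Sost had 0 UMIs in the osteoblast-gated cells of either library. Synovial lining fibroblasts numbered 923 and 310, loose connective fibroblasts 679 and 195, mural cells 254 and 22, and endothelial cells 330 and 52. The label of superficial cells therefore held for part of the cells, and 31.5% of trace and 36.7% of pulse cells stayed without a class. Although the sort was against CD45, 526 trace cells fell in the blood gate, with Ptprc (CD45) at 635 CPM. Pulse had 6 such cells, too few for a background level, since 0 UMIs there allow up to 227 CPM. A tendon or ligament gate of 54 and 16 cells had 1 UMI of Tnmd in each library and was left unnamed.

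Bone mineral forms when calcium and phosphate crystallise on a collagen matrix, and pyrophosphate outside the cell holds this back. Bone sialoprotein (Ibsp) and dentin matrix protein (Dmp1) are acidic proteins that bind mineral, osteopontin (Spp1) slows crystal growth and binds integrins, and the peptidase Phex restrains such acidic matrix proteins. Osteocalcin (Bglap, Bglap2) and matrix Gla protein (Mgp) carry gamma-carboxylated glutamates that bind calcium, and Mgp keeps cartilage and arteries from calcifying. Enpp1 makes pyrophosphate from ATP outside the cell, and Ank helps to bring ATP or pyrophosphate out of it.

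Ibsp, Dmp1 and Spp1 lie in one direction on the plus strand of mouse chromosome 5, and the 3 genes span 238 kb from the start of Dmp1 to the end of Spp1 (GRCm38). Bglap and Bglap2 lie side by side on the minus strand of chromosome 3, within 6.73 kb. The RefSeq promoter table (GRCm38.p6), which runs from 250 bases before a start to 50 after it, held 7 of the 9 genes. The promoters of 4 genes with the osteoblast gate as their highest named class are shown. Phex and Bglap2 were also highest there, but the promoter of Phex was not searched and Bglap2 had no entry. Capitals mark 3 short motifs on either strand. The first was the TATA motif, searched as TATAAA. The next was the CCAAT motif, under that spelling. The last was the core that RUNX factors bind, searched as TGTGGT. The windows are chr5:104299037-104299336 (Ibsp, plus), chr5:104434861-104435160 (Spp1, plus), chr5:104202367-104202666 (Dmp1, plus) and chr3:88384417-88384716 (Bglap, minus), each written 5′ to 3′ on the gene's strand.
Ibsp: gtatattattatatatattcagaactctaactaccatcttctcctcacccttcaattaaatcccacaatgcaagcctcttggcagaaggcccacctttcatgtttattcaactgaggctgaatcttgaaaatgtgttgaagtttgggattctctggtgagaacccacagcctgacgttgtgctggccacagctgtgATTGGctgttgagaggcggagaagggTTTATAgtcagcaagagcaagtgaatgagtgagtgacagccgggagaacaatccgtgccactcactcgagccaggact
Spp1: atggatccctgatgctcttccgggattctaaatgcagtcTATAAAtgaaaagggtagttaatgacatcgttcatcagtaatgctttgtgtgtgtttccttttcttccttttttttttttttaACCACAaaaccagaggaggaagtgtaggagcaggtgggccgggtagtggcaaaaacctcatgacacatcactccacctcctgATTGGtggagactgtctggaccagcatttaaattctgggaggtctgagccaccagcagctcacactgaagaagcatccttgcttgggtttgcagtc
Dmp1: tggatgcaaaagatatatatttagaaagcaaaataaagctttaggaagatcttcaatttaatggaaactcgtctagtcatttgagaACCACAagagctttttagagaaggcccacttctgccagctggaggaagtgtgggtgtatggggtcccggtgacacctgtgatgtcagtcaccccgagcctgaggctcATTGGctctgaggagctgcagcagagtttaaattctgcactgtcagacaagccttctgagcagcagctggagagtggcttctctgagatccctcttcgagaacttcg
Bglap: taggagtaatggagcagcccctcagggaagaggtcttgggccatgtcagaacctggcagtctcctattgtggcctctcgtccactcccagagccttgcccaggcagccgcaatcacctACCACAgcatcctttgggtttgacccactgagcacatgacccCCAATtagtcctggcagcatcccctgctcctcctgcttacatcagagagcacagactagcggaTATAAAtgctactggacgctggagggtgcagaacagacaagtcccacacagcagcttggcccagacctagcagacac
The CCAAT motif stood in all 4 windows and in 37.9% of 27025 RefSeq promoters. The RUNX core stood in Spp1, Dmp1 and Bglap and in 16.9% of promoters, and the TATA motif in Ibsp, Spp1 and Bglap and in 14.2%. The searched motifs did not overlap each other in these windows. A match is a description of letters only.

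The coding sequences of the osteocalcin pair are shown because they decide what the counts of Bglap and Bglap2 can tell. They come from GENCODE M21 transcripts (GRCm38) of the genes at chr3:88383501-88384464 (Bglap) and chr3:88377736-88378699 (Bglap2). Capitals mark the 4 bases of 288 that differ.
Bglap: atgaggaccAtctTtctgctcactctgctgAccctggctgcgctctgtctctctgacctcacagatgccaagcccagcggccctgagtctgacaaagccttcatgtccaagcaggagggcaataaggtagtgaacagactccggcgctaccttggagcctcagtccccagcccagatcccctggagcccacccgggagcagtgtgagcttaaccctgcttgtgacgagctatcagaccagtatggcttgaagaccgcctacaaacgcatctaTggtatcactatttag
Bglap2: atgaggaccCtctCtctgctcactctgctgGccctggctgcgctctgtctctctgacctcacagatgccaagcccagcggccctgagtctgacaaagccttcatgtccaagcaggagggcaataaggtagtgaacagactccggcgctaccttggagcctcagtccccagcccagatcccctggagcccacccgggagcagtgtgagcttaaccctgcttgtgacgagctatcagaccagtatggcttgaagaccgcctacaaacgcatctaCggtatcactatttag
The coding sequences were 98.6% identical and shared a run of 241 bases. The last 200 bases of the transcripts, next to the end that a 3′ library reads, were 99.5% identical. Counts of Bglap and Bglap2 are therefore uncertain as separate values, and the order of the pair is not read below.

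Ibsp, Spp1, Dmp1, Phex and both osteocalcins were highest in the osteoblast gate in each library, among the named classes. Ibsp stood at 9712 CPM (9521 to 9906) in trace osteoblast-gated cells and 3074 CPM (2850 to 3312) in pulse. Spp1 stood at 9636 CPM and 3517 CPM there. Both genes were thus higher in the trace library in this class. Dmp1 had 702 CPM in trace and 385 CPM in pulse, and Phex 118 CPM and 70.9 CPM. Bglap reached 2600 CPM (2501 to 2701) and 2069 CPM (1885 to 2265), and Bglap2 1748 CPM and 2760 CPM. Among the other named classes, the osteocalcins reached 20 CPM in deeper chondrocytes, and Bglap2 also in lining fibroblasts of pulse, at 28.1 CPM, with 16.2 CPM in those of trace.

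**Figure D1:**
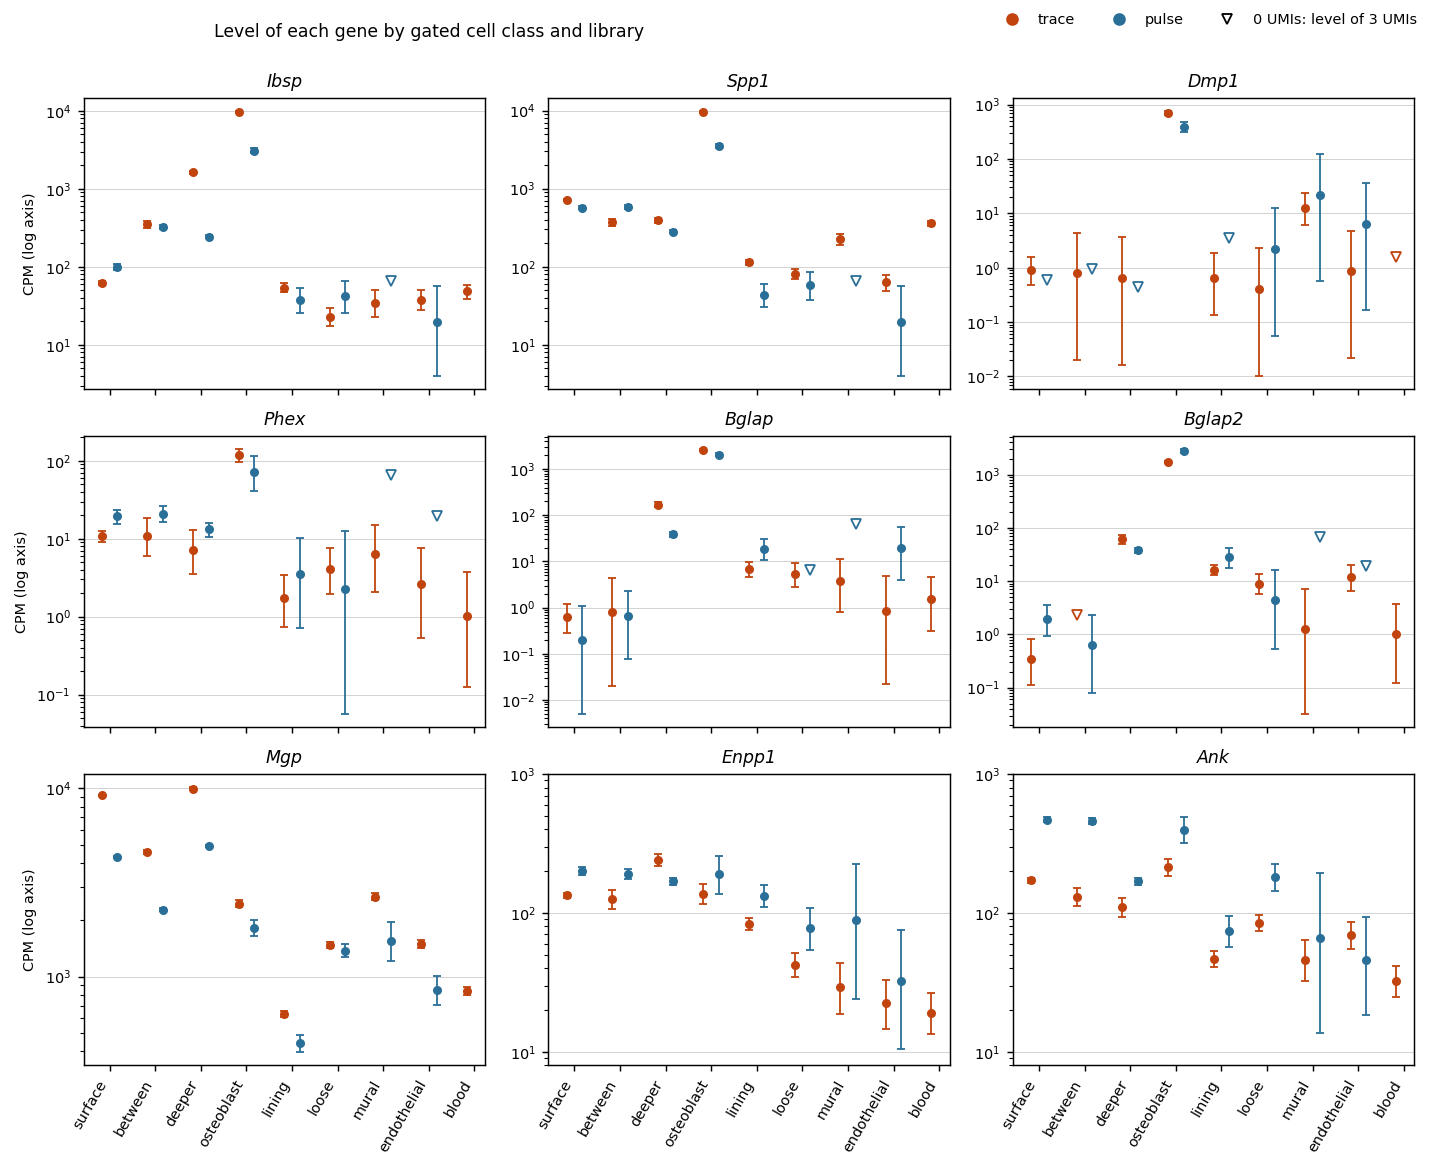
Level of each of the 9 genes in CPM (log axis) by gated class, with trace left of pulse in each pair and exact Poisson 95% intervals for counting error; open triangles mark 0 UMIs at the level of 3 UMIs, and pulse blood cells (6 cells) are not drawn. Among the named classes, Ibsp, Spp1, Dmp1, Phex and the osteocalcins peak in the osteoblast gate, whereas Mgp peaks in deeper chondrocytes, at 9958 CPM in trace deeper and 4945 CPM in pulse deeper cells.

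Of the named classes, the osteoblast gate was not the highest for Mgp or Enpp1 in either library, and for Ank it was so in trace only. Among the named classes, Mgp was highest in deeper chondrocytes, at 9958 CPM (9801 to 10117) in trace and 4945 CPM (4892 to 4997) in pulse. The unnamed tendon or ligament gate had it at 4683 CPM in 54 trace cells and 7509 CPM (6709 to 8379) in 16 pulse cells. It stood next in surface chondrocytes, at 9196 CPM and 4325 CPM, and in osteoblast-gated cells it was lower, at 2439 CPM and 1816 CPM. Enpp1 was spread over chondrocytes and osteoblast-gated cells, from 126 to 242 CPM in trace and from 169 to 200.5 CPM in pulse over these 4 classes. Ank ranged from 110.0 to 213 CPM in trace and from 169 to 469 CPM in pulse over the same classes. In trace blood cells, Enpp1 and Ank were at 19.1 and 32.5 CPM.

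The blood gate of trace served as background, although some blood cells are known to make osteopontin. All 9 genes were at least 2-fold higher in trace osteoblast-gated cells than in blood-gated cells, against 19.8% of 7479 genes measured (28.7% were lower), and their median log2 ratio was 6.83, against -0.35 over all those genes. Ibsp had 48.5 CPM in blood cells and was 200.4-fold higher in osteoblast-gated cells (164 to 248). Dmp1 had 0 UMIs in blood cells, and its ratio was 454-fold with blood set at 3 UMIs. Bglap, Bglap2 and Phex had 3, 2 and 2 blood UMIs, which gave ratios of 1681 (575 to 8156), 1695 (469 to 14007) and 114 (30.9 to 953). Mgp was 2.90-fold higher (2.72 to 3.09).

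The blood level was not alike for all genes. For Ibsp, Mgp and the chondrocyte gene Prg4 it was 10.1%, 13.3% and 12.6% of the mean over all kept trace cells, but for Spp1 41.8%. Spp1 had 360.4 CPM in blood cells and was seen in 20.0% of them (median 2421 UMIs), against 64.1% of osteoblast-gated cells (median 3106 UMIs). The blood level of Spp1 was uneven among blood cells, at 522 CPM in the 173 cells with 3 or more UMIs of the granulocyte gene Ngp and 99.5 CPM in the 106 cells with the B-cell gene Cd79a. One blood-gated cell held 175 of the 699 Spp1 UMIs. Blood-cell Mgp was also uneven, with 17 of 526 cells holding 85.5% of it. For Ibsp, 3 blood-gated cells held 52 of 94 UMIs, each with 10 or more Col1a1 UMIs, and without these 3 cells the blood level of Ibsp was 21.8 CPM (15.7 to 29.5).

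In chondrocytes this background decides which levels can be read, except for Spp1. The folds below use all 526 blood-gated cells, with Ibsp at 48.5 CPM, and not the 21.8 CPM left without the 3 cells named above. Surface chondrocytes of trace had Ibsp at 62.0 CPM (58.0 to 66.2), 1.28-fold the blood level (1.03 to 1.60), and a UMI in 6.65% of cells against 4.37% of blood cells. After each cell was thinned to 2000 UMIs, these shares were 4.09% and 4.36%, so a UMI of Ibsp in a trace surface cell was not seen more often than in a blood cell at matched depth. Deeper chondrocytes of trace had 1630.0 CPM, 33.6-fold the blood level, and the between-zone cells 350.3 CPM, 7.23-fold. Thinned shares there were 17.3% and 19.7%. Spp1 in trace chondrocytes, at 713 CPM in surface, 369 CPM in between-zone and 393 CPM in deeper cells, was at 1.98, 1.02 and 1.09 times the blood level. That blood level was itself above Spp1 in trace endothelial (63.2 CPM), loose connective (80.3 CPM), lining (113 CPM) and mural cells (224 CPM). A chondrocyte level of Spp1 near that of blood cells is therefore not read as background. The part of Spp1 made by blood cells was not tested.

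Dmp1 was close to absent from chondrocytes. Over the joined chondrocytes it had 15 UMIs in 3333 trace cells and 0 in 3453 pulse cells, where 0 UMIs allow up to 0.244 CPM. Bglap, in contrast, had 259 UMIs in deeper chondrocytes of trace (169 CPM, 149 to 190.4) and 266 in those of pulse (38.4 CPM, 34.0 to 43.4), and 9 UMIs and 1 UMI in surface cells. Deeper chondrocytes were thus higher than surface cells in Bglap in both libraries, 270-fold (140 to 597) in trace and 195-fold (34.7 to 7738) in pulse. Of the 9 genes, 7 were measured in this comparison of zones, and 3 (Ibsp, Bglap, Bglap2) were at least 2-fold higher in deeper cells of trace, against 9.84% of genes measured, and 0 lower, against 10.9%. The same 3 were higher in deeper cells of pulse, against 15.5%, and 2 (Spp1, Ank) were lower, against 10.8%. In both libraries the 3 higher genes include the osteocalcin pair, whose counts are uncertain as separate values. Runx2, a regulator of bone and hypertrophic cartilage, stood at 388 and 6.45 CPM in deeper and surface cells of trace and 219 and 14.2 CPM in those of pulse.

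Ibsp in chondrocytes lay in few cells. Over the joined chondrocytes, the 5% of cells with most Ibsp held 96.2% of its UMIs in trace and 78.9% in pulse. In the surface zone these shares were 94.7% and 81.9%, and without those cells the level was 3.49 CPM in trace and 19.4 CPM in pulse. In the deeper zone of trace, 5 of 238 cells, with 463, 385, 316, 250 and 192 UMIs, held 64.1% of Ibsp. The 5 fullest of 1032 deeper cells of pulse, a smaller part of their class, held 31.3%. At like parts of the class, the fullest 1% of deeper cells held 46.5% in trace and 44.3% in pulse. The fullest 5% of deeper cells held 89.4% and 77.6%. The deeper level without 5 cells was 601 CPM in trace and 169 CPM in pulse, and without the fullest 5% of cells 187 and 56.7 CPM. In the between-zone cells the share of the fullest 5% was lower, at 67.1% and 64.9%.

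**Figure D2:**
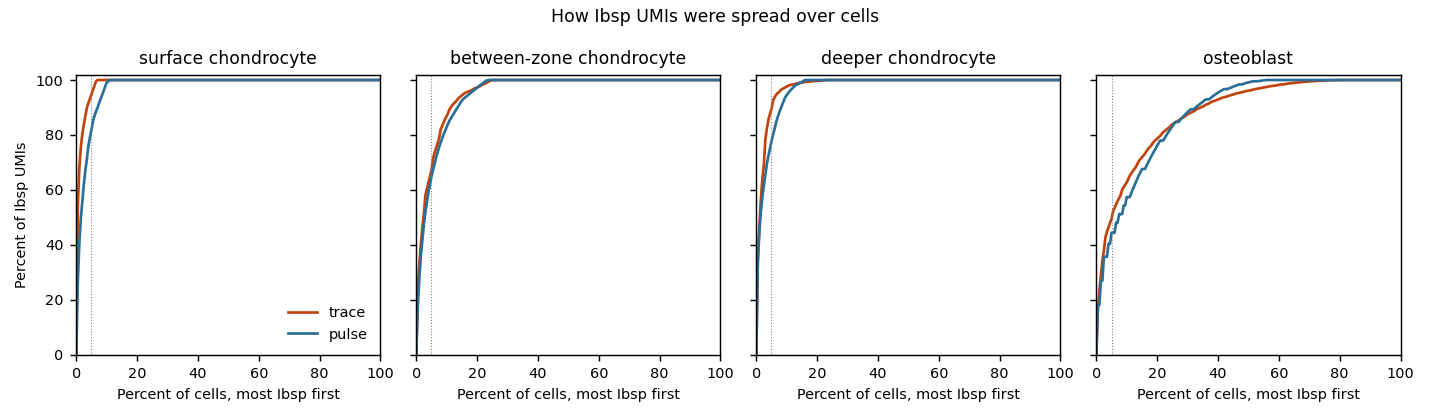
Percent of Ibsp UMIs (vertical axis) held by cells ranked from most to least Ibsp (horizontal axis, percent of cells), for the 3 chondrocyte zones and the osteoblast gate, with trace and pulse as lines and a dotted line at 5% of cells. The fullest 5% of surface cells hold 94.7% in trace and 81.9% in pulse, whereas the fullest 5% of osteoblast-gated cells hold 49.4% and 44.4%.

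Of the other genes, Mgp, Enpp1, Ank and Spp1 were each seen in more chondrocytes than Ibsp and were less concentrated there. The fullest 5% of joined chondrocytes held 36.4% of Mgp in trace and 47.3% in pulse, 35.6% and 35.2% of Enpp1, and 29.9% and 44.9% of Ank. For Spp1 the shares were 78.0% and 74.7%. Phex, Bglap and Bglap2 were seen in fewer chondrocytes than Ibsp, and their shares were higher than those of Ibsp in both libraries. The share depends on how many cells have a UMI, so it does not set Ibsp apart from genes seen in few cells. The median chondrocyte had 13 Mgp UMIs in trace and 1 in pulse. In osteoblast-gated cells Ibsp was broader, with a median of 11 UMIs per cell in trace and 2 in pulse and at least 1 UMI in 81.4% and 56.8% of cells. Spp1, Dmp1 and Phex stayed concentrated there: 1 trace cell held 2250 of 9748 Spp1 UMIs, and the fullest 5% held 91.4% of Dmp1 and 94.1% of Phex.

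Cells with 10 or more Ibsp UMIs numbered 276 in trace and 148 in pulse over all kept cells. In trace, 126 of them were osteoblast-gated, 51 were gated as chondrocytes and 92 were without a class. In pulse, 22 were osteoblast-gated, 78 were chondrocytes and 46 were without a class. Most of the pulse cells had no type I collagen: 122 of 148 had 0 UMIs of Col1a1, against 76 of 276 in trace. Aggrecan (Acan), the proteoglycan of cartilage, was seen in 155 of the trace cells and 130 of the pulse cells. It had 3 or more UMIs in 106 of the trace and 113 of the pulse cells. Trace blood-gated cells had Acan at 273 CPM, and the part of such background in single Acan UMIs was not tested. These counts over all kept cells do not use the gate, whereas the osteoblast gate itself uses Col1a1. Among chondrocytes, 14 trace cells held 8 or 9 Ibsp UMIs and 10 held 10 to 12.

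The chondrocytes with 10 or more Ibsp UMIs were set against chondrocytes with 0 Ibsp UMIs in the same library. In trace, Col1a1 was seen in 4 of the 51 cells, Dmp1 in 0 and Acan in 49, and in pulse Col1a1 and Dmp1 in 0 of 78 and Acan in 76. Alpl, the phosphatase that removes pyrophosphate and is a marker of mineralising cells, stood at 313 CPM in the Ibsp-rich trace cells and 10.3 CPM in cells without Ibsp. In pulse it stood at 238 and 37.1 CPM. Sparc, a collagen-binding and calcium-binding matrix protein of bone and cartilage, was at 19518 and 4628 CPM in trace and 96247 and 26283 CPM in pulse. Prg4 was at 6752 and 28798 CPM in trace and 1316 and 6313 CPM in pulse, and Mgp at 4163 and 9345 CPM in trace and 1113 and 4517 CPM in pulse. Ibsp-rich chondrocytes thus had more Alpl and Sparc and less Prg4 and Mgp than chondrocytes without Ibsp, in both libraries. The zones were mixed unequally, since 19 of the 51 Ibsp-rich and 182 of the 3027 Ibsp-free cells of trace were deeper cells, as were 40 of 78 and 866 of 2923 in pulse. Within deeper cells alone, Alpl stood at 655 and 114 CPM in trace and 417 and 76.2 CPM in pulse, and Sparc at 24095 and 14326 CPM in trace and 91910 and 19537 CPM in pulse. Prg4 stood there at 365 and 944 CPM in trace and 577 and 711 CPM in pulse, and Mgp at 7266 and 10550.1 CPM in trace and 2003 and 4939 CPM in pulse. All 4 genes kept their direction within deeper cells, with a smaller difference in Prg4. Col1a1 was seen in 3 of the 19 Ibsp-rich deeper cells of trace, which put it at 1582 CPM there and 112 CPM in Ibsp-free deeper cells, and in 0 of 40 in pulse. The part of bone cell RNA in these droplets was not tested.

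Spp1 and Col10a1 depended on the library or zone in this comparison. Over the joined chondrocytes, Spp1 stood at 684 CPM in Ibsp-rich and 639.6 CPM in Ibsp-free trace chondrocytes, but at 2193 and 286 CPM in those of pulse. Col10a1, the collagen of hypertrophic cartilage, was lower in Ibsp-rich than in Ibsp-free cells of trace, at 1032 and 2375 CPM, and higher in those of pulse, at 10072 and 2470 CPM. Within deeper cells Spp1 was higher in Ibsp-rich than in Ibsp-free cells of both libraries, at 1192 and 233 CPM in trace and 1491 and 139 CPM in pulse, whereas Col10a1 stood at 562 and 620.4 CPM in trace and 12718 and 569 CPM in pulse. Within surface cells Spp1 stood at 458 and 699 CPM in trace and 1954 and 505 CPM in pulse. Col10a1 was seen in 24 of 51 trace and 68 of 78 pulse Ibsp-rich chondrocytes. Median depth was 6859 UMIs in Ibsp-rich and 4545 in Ibsp-free cells of trace, and 4427 and 3361 in those of pulse. Of the Ibsp-rich cells, 7.84% of trace and 11.5% of pulse were among the 5% of each library with the highest doublet scores, against 2.25% and 4.96% of the Ibsp-free cells. The part of depth and doublets in these differences was not tested.

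Osteoblast-gated cells were also not of one kind. Dmp1, which in bone marks cells becoming osteocytes, was seen in 37 of 237 trace cells and 6 of 81 pulse cells. Phex stood at 460.3 CPM in the trace cells with Dmp1 and 35.5 CPM in those without it, and at 461 and 33.9 CPM in pulse. In trace, Spp1 stood at 30367 and 4670 CPM and Bglap at 5913 and 1806 CPM, while Ibsp was lower with Dmp1, at 6736 and 10425 CPM. Alpl stood at 210 and 580 CPM. Fam20c, the kinase that phosphorylates these acidic proteins, stood at 691 and 143 CPM in trace and 921 and 194 CPM in pulse. The Dmp1 cells of trace thus had more Phex, Spp1, Bglap and Fam20c and less Ibsp and Alpl. In pulse, with 6 cells, Bglap went the other way, at 972 and 2173 CPM. Of the 6 bone genes (Ibsp, Spp1, Dmp1, Phex, Bglap and Bglap2), 3 or more were seen in 58.6% of trace osteoblast-gated cells (52.1% to 65.0%, exact binomial) and 43.2% of pulse (32.2% to 54.7%), against 5.04% and 2.62% of deeper and 0.245% and 0.260% of surface chondrocytes.

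Mgp in the osteoblast gate lay mostly in few cells with little Dmp1 or Bglap. In trace, 25 of 237 cells had 10 or more Mgp UMIs and held 91.0% of it, and in pulse 11 of 81 cells held 91.5%. The trace cells rich in Mgp had Bglap at 168 CPM, against 3208 CPM in the other 212, and Dmp1 at 19.8 CPM, against 873 CPM. In pulse, Bglap stood at 360.4 and 2487 CPM and Dmp1 at 0 and 479.7 CPM. The cartilage gene Acan was seen in 84.0% of Mgp-rich and 28.8% of the other trace cells, and in 81.8% and 32.9% of those of pulse. The part of mixed droplets in this was not tested. Without the 5% of cells with most Mgp in each class, Mgp stood at 779 CPM in osteoblast-gated and 109 CPM in blood-gated cells of trace.

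Within chondrocytes Mgp and Col10a1 tended to lie in different cells. Cells with 10 or more Mgp UMIs made up 53.7% of trace and 32.3% of pulse chondrocytes, and cells with none 19.5% and 39.9%. Col10a1 stood at 967 CPM in the Mgp-rich and 5082 CPM in the Mgp-free cells of trace, and at 839 and 7954 CPM in those of pulse. Spp1 ran the same way, at 338 and 1269.97 CPM in trace and 237 and 831 CPM in pulse. Ibsp did so in pulse, at 80.6 and 463 CPM, whereas over the joined cells of trace, without thinning, it was nearly level, at 213 and 225 CPM. In surface cells alone, Ibsp stood at 27.2 and 135 CPM in trace and 12.5 and 169 CPM in pulse, with Col10a1 at 919 and 5044 CPM and 666 and 7167 CPM. Over the joined cells, the Mgp-rich cells of each library were thus the lower ones for Col10a1 and Spp1.

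**Figure D3:**
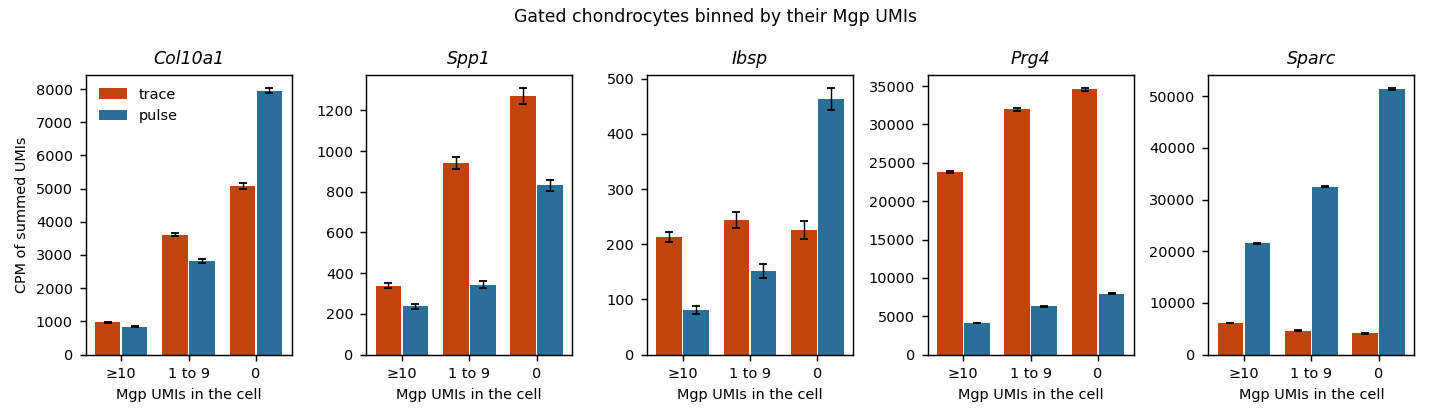
Summed level in CPM of 5 genes in gated chondrocytes with 10 or more, 1 to 9 or 0 Mgp UMIs, as bars for trace (left) and pulse (right) with exact Poisson 95% intervals. Col10a1 and Spp1 step up as Mgp goes down in both libraries, with Col10a1 at 967, 3614 and 5082 CPM in trace and 839, 2827 and 7954 CPM in pulse.

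This pattern was seen at matched depth too. After thinning to 2000 UMIs, surface cells with 5 or more Mgp UMIs had Col10a1 at 575 CPM in trace and 478 CPM in pulse, and those with 0 Mgp UMIs had 4424 and 6665 CPM. Spp1 stood at 232 CPM in the Mgp-rich and 1277 CPM in the Mgp-free cells of trace and at 286 and 770.0 CPM in those of pulse. Deeper cells of trace were an exception for Spp1, at 416 CPM in 143 Mgp-rich and 233 CPM in 15 Mgp-free cells after thinning. Ibsp over the joined cells was lower in Mgp-rich than in Mgp-free cells after thinning. It stood at 127 and 297 CPM in trace and 29.5 and 449 CPM in pulse. Of the 477 thinned Ibsp UMIs in Mgp-free cells of trace, 185 lay in those 15 deeper cells. Sparc did not keep one direction over the joined chondrocytes. Without thinning it stood at 6058 CPM in Mgp-rich and 4099.8 CPM in Mgp-free cells of trace, but at 21504 and 51402 CPM in those of pulse. After thinning it stood at 5714 and 4310 CPM in trace and 22864 and 49005 CPM in pulse. Without thinning, Prg4 was lower in Mgp-rich cells of trace, at 23780.3 and 34564 CPM, and of pulse, at 4123 and 7917 CPM. In surface cells of pulse alone it was higher in them, at 13445 and 11029 CPM. After thinning, Prg4 over the joined cells stood at 24204 and 33088 CPM in trace. In pulse the difference was then small, at 7289 and 7991 CPM, with surface cells at 13260 and 11299 CPM.

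Between the libraries, the joined chondrocytes had Ibsp at 223 CPM in trace and 212 CPM in pulse, a ratio of 1.06 (1.01 to 1.11). Mgp stood at 8922 and 4186 CPM, a ratio of 2.13 (2.11 to 2.15), and Ank at 163 and 329 CPM, a ratio of 0.496 (0.473 to 0.519). Of the 9 genes, 5 reached 20 CPM, and 1 (Mgp) exceeded pulse by 2-fold or more while 1 (Ank) fell short of it by as much, against 1.74% and 10.8% of 6321 genes measured, or 12.6% in either direction. The near-equal Ibsp sums hid opposite ratios in the zones. Ibsp was lower in surface cells of trace, at 62.0 CPM against 100.05 CPM in pulse (ratio 0.62, 0.555 to 0.693). It was higher in deeper cells of trace, at 1630.0 CPM against 244 CPM (ratio 6.68, 6.28 to 7.11). The surface level of trace was 1.28 times that of all trace blood-gated cells, and pulse had too few such cells for a background. The part of background in the surface ratio was not tested. Between-zone cells did not differ beyond counting error, at 350.3 and 322 CPM (ratio 1.09, 0.972 to 1.22). The surface share of chondrocytes differed too, since 2857 of 3333 trace and 1540 of 3453 pulse chondrocytes were surface cells.

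The deeper difference in Ibsp rested in part on the 5 fullest trace cells. Without the 5 fullest cells of each library the ratio was 3.56 (3.26 to 3.89), and without the fullest 5% 3.29 (2.80 to 3.86). The surface ratio was 0.505 (0.445 to 0.574) without 5 cells and 0.18 (0.124 to 0.258) without the fullest 5%. The between-zone ratio was 0.719 (0.620 to 0.831) without 5 cells and 1.02 (0.832 to 1.23) without the fullest 5%. Leaving out 5 cells cut the libraries unequally. They were a larger part of the 238 deeper and 238 between-zone cells of trace than of the 1032 and 881 of pulse. In surface cells (2857 and 1540) they were a smaller part in trace. The deeper ratio stayed above 1 in each case, and the surface ratio below 1 without 5 cells. Without the fullest 5%, both surface sums, at 3.49 and 19.4 CPM, were under the floor of 20 CPM. That cut took 143 of the 190 trace and 77 of the 159 pulse surface cells with an Ibsp UMI, so the surface ratio after it is not read as a direction. Alpl, Slc20a1, a phosphate carrier, and Omd, a leucine-rich proteoglycan of bone, were also higher in deeper cells of trace, by 2.10-fold (1.83 to 2.40), 2.15-fold (1.93 to 2.39) and 2.89-fold (2.27 to 3.66). The deeper gate did not hold the same mix in both libraries. Col1a1 stood there at 289 CPM in trace and 17.3 CPM in pulse, and the cartilage genes Col2a1, Matn3 and Col9a1 at 13783, 561 and 1467 CPM in trace and 26222, 1368 and 3210 CPM in pulse. The part of this mix in the deeper ratios was not tested.

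**Figure D4:**
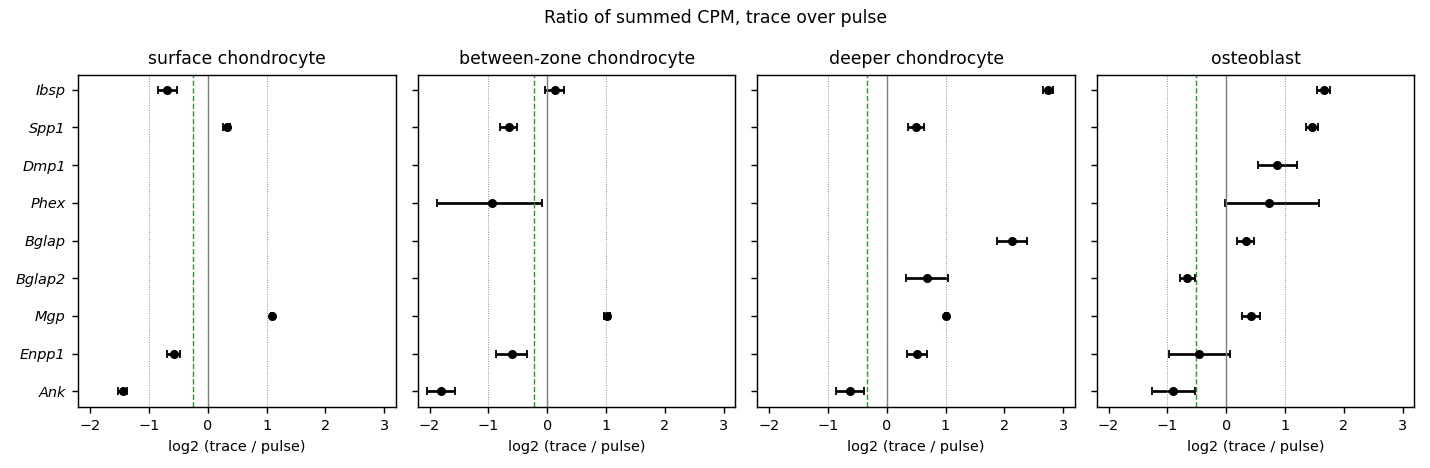
Ratio of summed CPM, trace over pulse, on a log2 axis for each of the 9 genes that reached 20 CPM, in the 3 chondrocyte zones and the osteoblast gate; bars are 95% counting intervals, dotted lines mark 2-fold and the dashed line the median of all genes measured. Ibsp lies left of 0 in surface cells (ratio 0.62) and right of it in deeper cells (6.68), Mgp near 2-fold in all 3 zones, and Ank left of 0 in all 4 panels.

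Mgp differed alike in every zone, with ratios of 2.13 (2.10 to 2.16) in surface, 2.02 (1.95 to 2.09) in between-zone and 2.01 (1.98 to 2.05) in deeper cells. The deeper ratio was 1.89 with classes from Leiden clusters and the surface ratio 1.97 with 1000 genes per cell, both under 2-fold. Cells with an Mgp UMI after thinning were 72.8% of trace and 50.3% of pulse surface cells and 93.5% and 75.1% of deeper cells. In surface cells, 1 of 5 measured genes (Mgp) was at least 2-fold higher, against 2.30% of genes, and 1 (Ank) lower, against 9.32%. In between-zone cells it was again Mgp and Ank, 1 of 6 measured genes each, against 4.32% and 10.9%. In deeper cells 3 of 7 (Ibsp, Bglap and Mgp) were higher, against 2.65%, and 0 lower, against 16.5%. Bglap stood there at 169 CPM in trace and 38.4 CPM in pulse, a ratio of 4.38 (3.68 to 5.22), and the pair partner Bglap2 at 60.5 and 37.6 CPM, a ratio of 1.61 (1.26 to 2.05). Summed, the pair had 229 and 76.0 CPM, a ratio of 3.01 (2.63 to 3.46). Of 259 trace UMIs of Bglap, 56.0% lay in 5 cells.

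The median log2 ratio of all genes measured was -0.25 in surface, -0.22 in between-zone, -0.34 in deeper and -0.51 in osteoblast-gated cells, and that of the 9 genes, over those measured, was -0.58, -0.63, 0.69 and 0.43. In the osteoblast gate all 9 were measured, and 2 (Ibsp and Spp1) were at least 2-fold higher in trace, against 6.34% of genes, and 0 lower, against 26.6%. Ibsp had a ratio of 3.16 (2.92 to 3.42) and Spp1 of 2.74 (2.55 to 2.95). Dmp1 had a ratio of 1.82 (1.46 to 2.30), and the interval of Phex, 0.981 to 3.00, held 1. Bglap was at 1.26 (1.14 to 1.39), from 0.817 to 1.68 under other settings, and Bglap2 at 0.633 (0.578 to 0.695). Summed, the pair had 4348 CPM in trace and 4828 CPM in pulse, a ratio of 0.900 (0.842 to 0.963). The gate itself differed in content, with the bone collagen Col1a1 at 26862 and 8740 CPM, Acan at 541 and 855 CPM and Col10a1 at 119 and 372 CPM, and the part of this in the ratios was not tested. With 81 pulse cells of this gate, each ratio rests on few cells.

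Ank and Enpp1, which act on pyrophosphate, differed in their zone pattern. Ank was lower in trace in every chondrocyte zone, at 171 CPM against 469 CPM in surface (ratio 0.37, 0.346 to 0.387), 131 CPM against 457 CPM in between-zone (0.286, 0.242 to 0.336) and 110.0 CPM against 169 CPM in deeper cells (0.651, 0.551 to 0.766). It was also lower in osteoblast-gated cells, at 213 and 399 CPM (0.533, 0.415 to 0.690), and in loose connective fibroblasts, at 84.7 and 181 CPM (0.469, 0.361 to 0.614). Ank in pulse reached 10 UMIs in 75 chondrocytes, against 10 trace chondrocytes. Enpp1 was lower in trace surface cells, at 134 and 200.5 CPM (0.67, 0.619 to 0.722), and higher in trace deeper cells, at 242 and 169 CPM (1.44, 1.27 to 1.61). Spp1 was higher in trace surface cells, at 713 and 571 CPM (1.25, 1.20 to 1.30), and lower in trace between-zone cells, at 369 and 581 CPM (0.635, 0.573 to 0.703). Phex stayed between 7.16 and 20.9 CPM in the chondrocyte zones.

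Outside cartilage and bone, differences other than that of Ank in loose connective fibroblasts rested on few UMIs or cells. In lining fibroblasts 1 of 6 measured genes was 2-fold higher in trace, against 1.57% of genes, and 0 lower, against 10.3%. It was Spp1, at 113 CPM in trace and 43.3 CPM in pulse, below the trace blood level in both. Of the 525 trace UMIs, 81.3% lay in 5 of 923 cells and 221 in 1 cell, and without those 5 cells the trace level was 21.5 CPM. In loose connective fibroblasts 0 of 5 were higher, against 2.97%, and 1 (Ank, 208 and 81 UMIs) was lower, against 13.7%. In endothelial cells 1 of 5 (Spp1, 73 and 3 UMIs) was higher, against 9.19%, and 0 lower, against 16.1%. In mural cells 1 of 6 (Spp1, 176 and 0 UMIs) was higher, against 7.99%, and 1 (Enpp1, 23 and 4 UMIs) lower, against 38.8%.

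The other genes of mineral handling were counted as lists. Of 9 phosphate and pyrophosphate genes, 5 were measured in deeper cells, where Alpl and Slc20a1 passed 2-fold upward in trace, while Smpd3, a sphingomyelinase needed for mineralisation, was lower, at 26.0 and 63.0 CPM, against 2.65% of all genes higher and 16.5% lower. In the osteoblast gate 5 were measured, 0 were higher, against 6.34%, and Slc20a1 was lower, at 85.0 and 177 CPM, against 26.6%. In surface cells 3 were measured and 0 differed by 2-fold, against 2.30% higher and 9.32% lower. Of 8 other bone matrix and kinase genes, 3 were measured in surface cells and 1 was lower, Sparc, at 3853 CPM in trace and 30328 CPM in pulse, against 9.32% of all genes. In the osteoblast gate 4 of these 8 were measured and 1, Omd, was higher, at 330.2 and 70.9 CPM (ratio 4.66, 2.83 to 8.25), against 6.34%. Smpd3 and Ifitm5 are markers of the osteoblast gate and Ucma of the deeper gate, so these genes took part in choosing the cells.

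Of 6 vitamin K cycle and Gla protein genes, 5 were measured in the osteoblast gate. Gas6, a Gla protein that binds receptor kinases, stood there at 109.7 CPM in trace and 22.1 CPM in pulse (ratio 4.95, 2.06 to 15.6), and Vkorc1, which recycles vitamin K for the carboxylation that Mgp and osteocalcin need, at 129.5 and 39.9 CPM (3.25, 1.66 to 7.26). Vkorc1l1, its relative, was lower, at 54.4 and 111 CPM. These were 2 higher and 1 lower of 5, against 6.34% and 26.6% of all genes. In surface and deeper chondrocytes Mgp was the 1 gene of the list past 2-fold, against 2.30% of genes higher in surface and 2.65% in deeper cells. Of 7 RGD receptor and CD44 genes, 0 differed by 2-fold in surface or deeper cells, where 9.32% and 16.5% of all genes were lower. In osteoblast-gated cells Cd44, a receptor that binds osteopontin and hyaluronan, was lower in trace, at 273 and 638 CPM, against 26.6% of genes lower.

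Likeness of pattern was measured as Pearson's r of log2(CPM + 10) over 17 class and library sums of 50 or more cells, among 10174 genes, and is given as a description. The genes most like Ibsp were Gm13832 (r = 0.88), Omd (0.88) and Slc8a3 (0.88), and those most like Spp1 were Phex (0.88), Omd (0.84) and Pdzrn4 (0.84). Bglap was most like Bglap2 (0.97), Bmp3 (0.96) and Gxylt2 (0.95), but the counts of Bglap and Bglap2 are uncertain as separate values. Mgp was most like Dixdc1 (0.89), Cobl (0.89) and Tafa5 (0.88), and Enpp1 most like Fmn1 (0.95), Tiam2 (0.95) and Kif13b (0.92). Among the 9 genes themselves, r was 0.75 for Ibsp with Dmp1, 0.38 for Ibsp with Mgp and -0.03 for Dmp1 with Mgp. It was 0.77 for Enpp1 with Ank. For Enpp1 and Ank it was 0.62 and 0.52 with Ibsp, and 0.19 and 0.30 with Dmp1. The points share 2 libraries and their depth.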

How the data were processed

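For each of 2 libraries the deposited matrix holds UMI counts as the authors left them, unscaled. Its header names Cell Ranger 7.1.0, per the file headers, but version 3.0.1 stands in the submitters' processing notes, with mm10, STAR, HTSeq, Seurat and DESeq2 in no stated role. Whether intron or multi-mapped reads were counted is not given in the sources used here, and depth per cell limits every share. Cells with 500 or more genes and at most 10% mt- UMIs were kept. Each of 97 marker genes in 9 classes was scaled as log UMIs per 10000 and standardised. A cell took the class with the highest mean if that was at least 0.3, led by 0.2 and had 3 or more markers detected, and zones needed a gap of 0.2. These gate settings were chosen after the data were seen, and the 9 genes and the lists were chosen with earlier results of these data known.

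UMIs were summed per class and library and scaled to CPM. A gene counted as measured at 20 CPM or more in at least 1 of the 2 sums and was called at 2-fold, with a sum of 0 set at 3 UMIs. No p-value was computed, since each group has 1 library. Ratios have exact conditional Poisson intervals, levels exact Poisson and shares exact binomial intervals, all at 95%. Simulated counts were used to test the ratio step. All 9 genes were named, with up to 3 genes per related list of largest ratio in a class, and the 3 genes most alike. Genes quoted in cells grouped by Ibsp, Mgp or Dmp1 UMIs were chosen after their values were seen. Scrublet marked 0 cells at its own threshold and so had not worked; no cell was removed as a doublet, and removal of the 463 trace and 327 pulse cells with the highest scores was an alternative. Thinning to 2000 UMIs left out 2021 trace and 1768 pulse cells. Other alternatives were 1000 genes per cell, a lead of 0.4, Leiden clusters without the 9 genes (2000 variable genes, 30 components, 20 neighbours, resolution 0.5), other scalings, floors and cell weights. Used were biopython 1.88, matplotlib 3.10.9, igraph 0.11.9, leidenalg 0.10.2, anndata 0.12.19, scanpy 1.11.5, pandas 2.3.3, scipy 1.17.1, numpy 2.4.6, Python 3.11.15.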

Additional observations from a re-analysis of the deposited data

Results flagged for a closer look

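Ibsp and Enpp1 went opposite ways between the libraries in the 2 chondrocyte zones, with both counting intervals clear of 1. Ibsp stood at a trace over pulse ratio of 0.62 in surface and 6.68 in deeper chondrocytes. Enpp1 stood at 0.669 in surface and 1.44 in deeper chondrocytes. Surface Ibsp of trace was 1.28 times the level of all trace blood-gated cells, and pulse had too few such cells for a background. With 1 library per group, the difference between zones was not tested.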

How the results depend on the processing

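Log2 ratios of trace over pulse in the joined chondrocytes were 0.08 for Ibsp and 1.09 for Mgp. With 1000 genes per cell they were 0.20 and 0.99, with median-ratio scaling 0.27 and 1.29, without ribosomal RNA-associated transcripts 0.20 and 1.21, and as a mean over cells -0.32 and 1.30. Leiden clusters gave -0.071 and 1.23, and zones weighted alike, chosen after the data were seen, 1.62 and 1.04. Mgp was at 1.00 with a lead of 0.4 and 1.17 without the highest doublet scores. Ibsp was at -2.36 without its fullest 5% of cells. Genes past 2-fold numbered 2; they were 1 with 1000 genes, with median-ratio scaling and without the ribosomal transcripts, and 4 with no floor or with zones weighted alike. The share of Ibsp in the fullest 5% of chondrocytes was 96.8% in trace and 81.2% in pulse with a lead of 0.4, 97.5% and 77.4% after thinning, and 96.8% in trace without the highest doublet scores. The log2 ratio of Mgp in osteoblast-gated over blood cells was 1.54; it was -0.11 when the fullest 5% of osteoblast-gated cells alone were left out and blood cells were kept whole, and 2.84 when the fullest 5% of both were left out, both chosen after the data were seen. The causes were not tested. Of 30 named ratios, 27 stayed on their side of 1 and 21 kept their call under every alternative run. The deeper Ibsp ratio ranged from 3.29 to 20.9. The surface one ranged from 0.313 to 0.720 where a sum reached 20 CPM, and was 0.18 without the fullest 5% of cells, where both sums were lower. No paired analysis was possible because each group has 1 library without a replicate number. Depth per cell limits what a missing UMI can show.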
